A study of Mus musculus with 4 samples.

Results

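The stages of the B-cell lineage, from the progenitor to the plasma cell, were followed through 33 genes other than the immunoglobulin genes. They are 6 early genes, 8 genes of antigen receptor signalling and B-lineage transcription, 11 genes of the mature B cell and 8 genes of the plasma cell, all picked by name for what they are known to do, with earlier results of these data known. All 33 were found among the 33924 annotated genes of the files, and 28 of them were among the 21340 genes that could be tested.

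RNA came from bone marrow of wild type male C57Bl/6 mice, with no other allele or agent, that were mature (3 months of age) or elderly (24 months of age). The study's methods describe cells sorted by flow cytometry that lacked Ter119, CD31 and CD45 (Lin-) but carried the leptin receptor (LEPR+), a stromal population that holds skeletal stem and progenitor cells, whereas the labels give the source as whole marrow. Each age had 2 libraries. The study states that RNA of 3 or 4 mice was combined per group, whereas the titles of the labels number the libraries of an age as mouse 1 and mouse 2, so whether a library stands for 1 mouse or for several is not settled by the sources used here. An SD over n = 2 gives the spread between the libraries of an age.

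B cells form in the bone marrow from lymphoid progenitors. The recombinase cuts and joins the immunoglobulin genes, the heavy chain is tested with a surrogate light chain, and a finished receptor signals through the CD79 chains and a set of kinases and adaptors. Mature B cells carry CD20, CD22 and the complement and cytokine receptors of the resting cell, and a cell that meets antigen may become a plasma cell, in which the transcription factors Blimp-1 and XBP1 set up antibody secretion. B-lineage cells carry CD45, the antigen against which the sort selected.

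The libraries held 11930137 and 11730849 counts in mature mice and 10472117 and 15650518 in elderly mice, so that 3 reads, the floor used here, stood for 0.198 to 0.27 CPM (reads relative to the library size after TMM scaling). The stromal label was met by the counts of Lepr, which were 74183 and 65727 in mature and 45713 and 87711 in elderly libraries, and all 12 stromal markers were counted, with none called and a median log2 fold change of -0.36. Markers of blood cells were counted as well. The summed level of 8 markers of all leukocytes was 132 and 68.4 CPM in mature and 305 and 273 CPM in elderly libraries, with 3 of the 8 called higher. The same held for 9 of 12 tested erythroid markers, 9 of 14 neutrophil markers, 5 of 11 macrophage markers, 6 of 15 genes of dividing cells and 1 of 8 markers of plasmacytoid dendritic cells. Of 11 tested T and NK cell markers 0 were called, and 5 had an unadjusted p under 0.05 by edgeR's quasi-likelihood test. Over all genes tested, 2.28% were called higher, and 11.2% had an unadjusted p under 0.05 by the same test. The summed levels in mature and elderly libraries were 158 to 360 and 1071 to 1109 CPM for erythroid, 1272 to 2236 and 4716 to 4829 CPM for neutrophil, and 8.52 to 12.6 and 17.2 to 34.9 CPM for T and NK cell markers. Klrb1c and Cd163, which define NK cells and a class of macrophages, were at 0 in all 4 libraries, but with only 342 and 83 countable bases (13% and 1.85% of the longest transcript), so their zeros say little. Nkg7, which NK and cytotoxic T cells express, had 2 and 0 reads in mature and 23 and 16 in elderly libraries. Ptprc, the gene of CD45, had 4 and 1 reads in mature and 12 and 8 in elderly libraries, on the 152 of its bases that could be counted. The part of these cells in the results below was not tested, and in bulk RNA more cells of a type and more RNA per cell cannot be told apart.

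The counts cover only bases that belong to a single annotated transcript. For 18 of the 33 genes such bases came to less than 50% of the longest transcript, and 10 genes had no such base in their coding sequence. Irf4, Dntt and Spib had 3, 60 and 54 countable bases, Tnfrsf13c, Cd22 and Cd79b had 130, 219 and 236. A low count of these genes was not read as low expression. Of the 28 genes tested, 7 had over 50% of their counts on transcripts annotated as retained introns or processed transcripts, and Igll1 and Blnk had no count on a protein-coding transcript. Exon bases were shared with a gene on the opposite strand in 8 genes (Btk, Cd37, Cd72, Pax5, Rag2, Tnfrsf13b, Vpreb1 and Vpreb3). The libraries kept the strand, but the strand setting of the counting is not given in the sources used here.

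**Figure D1:**
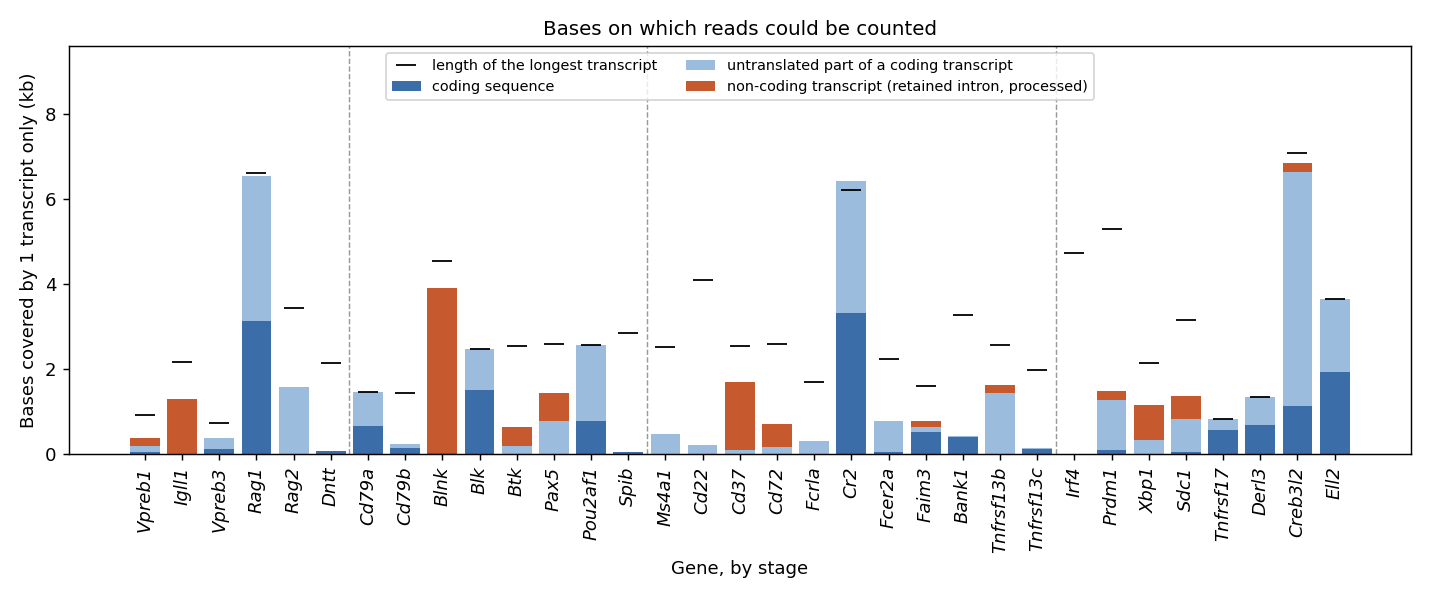
Bars give, for each of the 33 genes in the order of the stages, the bases (kb) covered by 1 transcript only, on which reads could be counted, split into coding sequence, untranslated parts of coding transcripts and non-coding transcripts, and black marks give the longest transcript. Rag1, Cd79a, Blk, Pou2af1, Tnfrsf17, Derl3, Creb3l2 and Ell2 could be counted over nearly their whole length, whereas Irf4 had 3 such bases, and the bar of Cr2 passes its mark because it adds up 2 transcripts.

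In elderly mice 2 of the 28 tested genes were called higher, Rag1 and Prdm1, and 0 were called lower (edgeR's quasi-likelihood test, adjusted p under 0.05). Over all 21340 genes tested, 2.73% were called, 2.28% higher and 0.45% lower. An unadjusted p under 0.05 was reached by 10 of the 28, against 11.2% of all genes tested. Both elderly libraries lay above both mature ones in 15 of the 28 genes and below in 3 (Fcer2a, Xbp1 and Sdc1), against 22.9% and 18.1% of all genes tested. The 15 include Spib, Ms4a1 and Prdm1, which had no read in mature libraries. These passed the filter only through the elderly libraries, so their direction was fixed. Faim3, also among the 15, had 0 and 1 reads in mature libraries and passed the same way, which set its direction. The log2 fold changes ranged from -1.03 upward, with 20 above 0, 8 below and a median of 0.89, where the median over all genes tested was 0.016. With 2 libraries per age, an exact permutation test of a single value cannot give a p below 0.333, so the p-values are those of the model fitted across all genes.

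**Figure D2:**
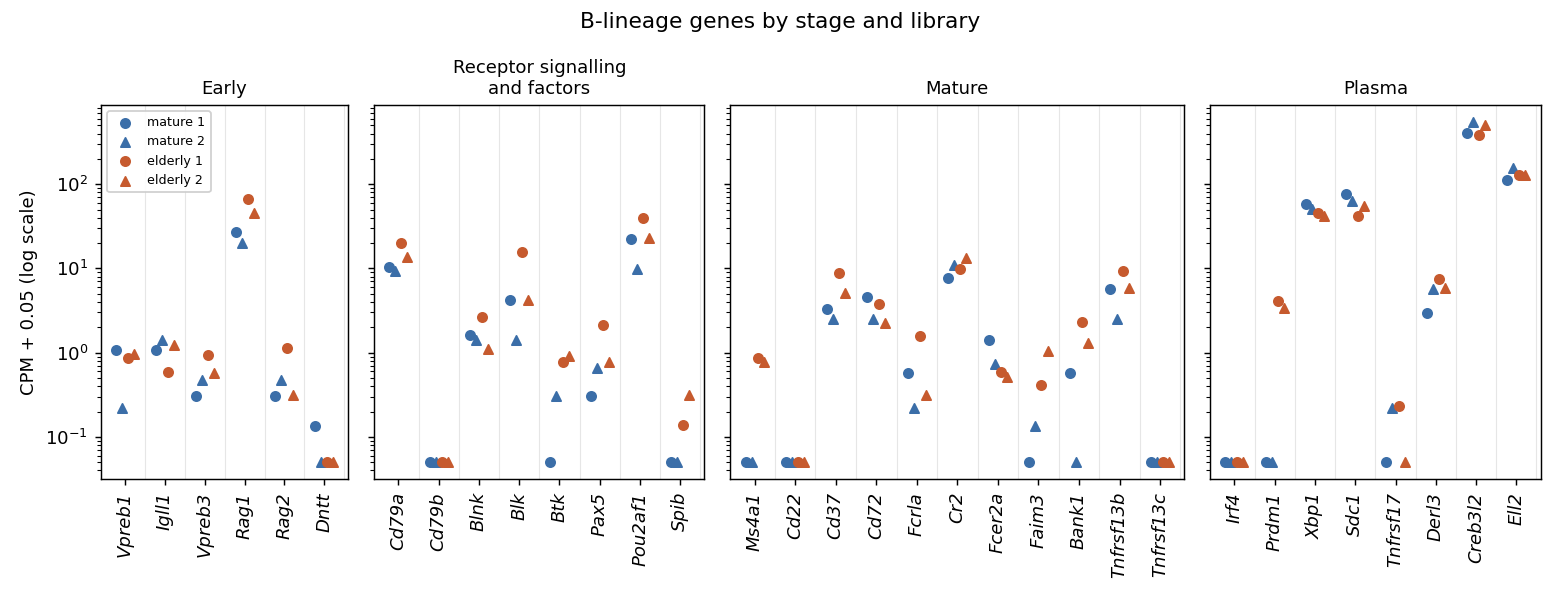
Each point is the level of a gene in 1 library in CPM plus 0.05 on a log scale, with blue for mature, orange for elderly, circles for replicate 1 and triangles for replicate 2, in 1 panel per stage. Points on the lowest line had no read. Prdm1, Ms4a1 and Spib had reads in the elderly libraries only, and the levels of the abundant plasma-stage genes of the 2 ages lay close together.

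By stage, as a description with no test between stages, the median log2 fold change was 0.91 over the 5 early genes tested, 1.66 over the 7 receptor and factor genes, 1.26 over the 9 mature genes and -0.06 over the 7 plasma genes. Without elderly replicate 1 the first 3 of these medians were 0.59, 0.57 and 0.49, and without mature replicate 2 that of the mature stage was 0.69. With edgeR's filterByExpr, which drops the genes with few reads, they were 0.49, 0.84 and 0.84. The groups were apart, with elderly above mature, in 2, 6, 5 and 2 genes of the respective stages, against the 22.9% of all genes given above. Spib, Ms4a1 and Prdm1, with no mature read, are among these, as is Faim3, which also passed the filter only through elderly libraries. Summed over its genes, the early stage stood at 29.8 and 22.6 CPM in mature and 70.3 and 48.1 CPM in elderly libraries. The receptor and factor stage stood at 38.6 and 22.6 CPM in mature and 80.3 and 43.6 CPM in elderly libraries, the mature stage at 23.3 and 19.5 against 36.9 and 29.8 CPM. In these 3 stages the elderly libraries lay above the mature ones, by 2.26, 2.02 and 1.56 times on average. The early sum is mostly Rag1: the other 5 early genes together stood at 2.67 and 2.4 CPM in mature and 3.32 and 2.9 CPM in elderly libraries, 1.23 times on average. The plasma stage overlapped between the ages, at 659 and 826 CPM in mature and 611 and 732 CPM in elderly libraries. Most of this sum is Creb3l2 (means of 480 CPM in mature and 441 CPM in elderly libraries) and Ell2 (133 and 128 CPM). A change in a gene as low as Prdm1 (means of 0 and 3.7 CPM) hardly shows in it.

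The library labelled elderly 1 had a higher CPM than elderly 2 in 20 of the 28 tested genes, among them 5 of the 7 receptor and factor genes and 7 of the 9 mature genes. Mature 1 was above mature 2 in 14 of 28. The summed leukocyte level given above was higher in mature 1 than in mature 2 and higher in elderly 1 than in elderly 2.

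**Figure D3:**
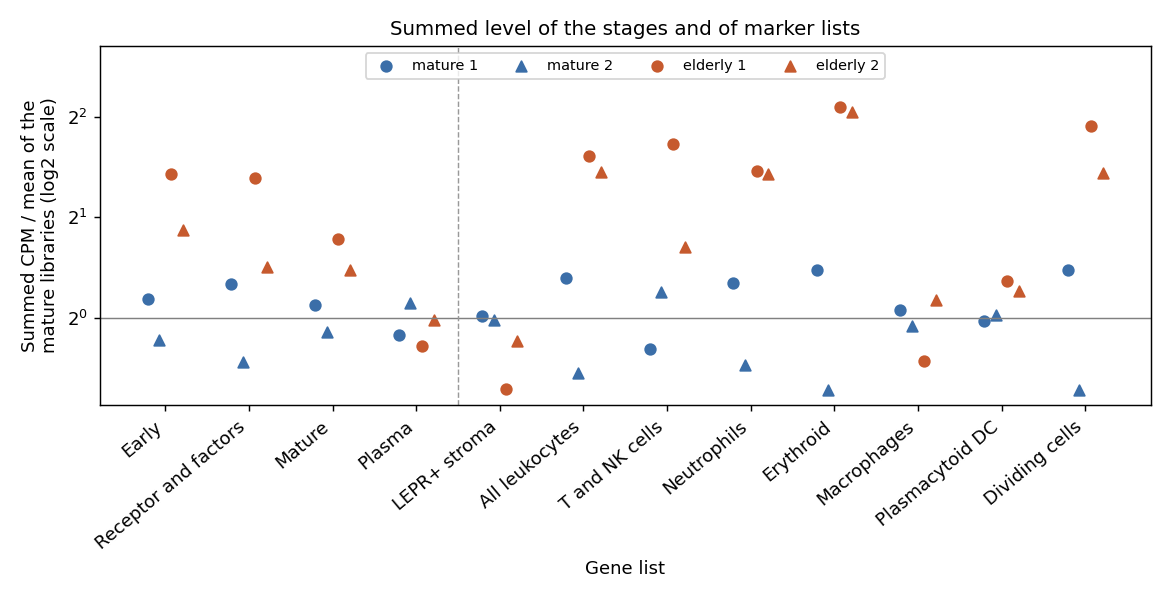
The summed CPM of each gene list in each library is divided by the mean of the 2 mature libraries and shown on a log2 scale, with the 4 stages of the B lineage left of the dashed line and marker lists of other cells right of it. The early, receptor and mature stages and the leukocyte, T and NK cell, neutrophil, erythroid and dividing-cell lists lay higher in both elderly libraries. The plasma stage, mostly Creb3l2 and Ell2 in its sum, overlapped, and the stromal list lay lower in both. The macrophage sum overlapped as well, but most of it is Vcam1, which stroma also expresses. The other 11 macrophage genes summed to 372 to 574 CPM in mature and 905 to 1002 CPM in elderly libraries. Most of that is Lyz2, at 310 to 497 CPM in mature and 764 to 854 CPM in elderly libraries.

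The stretches before the starts of 5 genes are shown because these genes stand for the steps described next: Rag1 and Prdm1, the pair called higher, Cd79a, a receptor chain that could be counted whole, and Igll1 of the surrogate light chain and Vpreb3, which encodes a related chain. The sequences were taken from RefSeq on build GRCm38.p6, each was found exactly 1 time in the genome build of the files (NCBIM37), and the coordinates are of that build. They run 5′ to 3′ on the strand of the gene up to the base before the RefSeq start, except that of Cd79a the last 116 bases are left out. Capitals mark matches on either strand to CAGGTG, an E-box of the kind bound by E2A proteins, to CCCNNGGG, the core bound by EBF1, and to ATGCAAAT, the octamer bound by Oct factors with the coactivator encoded by Pou2af1. Rag1 at chr2:101489690-101489939 and Prdm1 at chr10:44178555-44178804 lie on the minus strand, as does Igll1 at chr16:16864079-16864328. Cd79a at chr7:25682266-25682399 and Vpreb3 at chr10:75410795-75411044 lie on the plus strand, and the 134 bases of Cd79a shown are those outside annotated exons.
Rag1: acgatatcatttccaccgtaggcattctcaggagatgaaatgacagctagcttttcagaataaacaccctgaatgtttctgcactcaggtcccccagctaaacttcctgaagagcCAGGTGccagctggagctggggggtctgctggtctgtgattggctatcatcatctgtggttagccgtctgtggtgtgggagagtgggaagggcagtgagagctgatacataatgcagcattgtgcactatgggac
Prdm1: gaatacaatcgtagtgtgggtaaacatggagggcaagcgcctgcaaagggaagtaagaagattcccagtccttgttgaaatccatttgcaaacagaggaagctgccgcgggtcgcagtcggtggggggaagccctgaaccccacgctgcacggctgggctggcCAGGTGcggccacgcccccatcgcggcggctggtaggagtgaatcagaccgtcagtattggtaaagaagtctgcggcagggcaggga
Cd79a: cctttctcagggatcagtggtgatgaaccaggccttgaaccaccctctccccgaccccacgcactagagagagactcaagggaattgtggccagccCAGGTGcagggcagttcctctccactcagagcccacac
Igll1: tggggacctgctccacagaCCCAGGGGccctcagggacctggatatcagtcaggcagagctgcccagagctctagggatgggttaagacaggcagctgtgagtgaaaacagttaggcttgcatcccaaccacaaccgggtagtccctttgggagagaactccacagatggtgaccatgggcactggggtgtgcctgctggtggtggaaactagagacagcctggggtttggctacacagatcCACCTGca
Vpreb3: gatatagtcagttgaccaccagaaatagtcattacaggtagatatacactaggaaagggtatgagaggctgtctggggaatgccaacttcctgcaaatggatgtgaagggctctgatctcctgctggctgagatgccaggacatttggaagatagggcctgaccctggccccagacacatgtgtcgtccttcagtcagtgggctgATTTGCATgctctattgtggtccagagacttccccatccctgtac

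In these stretches the E-box letters were found in Rag1 at positions -135 to -130 from the start, in Prdm1 at -87 to -82, in Cd79a at -154 to -149 and in Igll1, as the opposite strand, at -8 to -3. Igll1 also held CCCNNGGG at -231 to -224, and Vpreb3 held the octamer, as the opposite strand, at -45 to -38. Over the 250 bases before the start, 32 RefSeq promoters of 30 of the 33 genes could be read, and Blk, Cd79b and Ms4a1 had no entry. CAGGTG was in 15 of the 32 (46.9%), against 17.2% of 32851 promoters in all. CCCNNGGG was in 5 (15.6%, against 11.8%) and ATGCAAAT in 2 (6.25%, against 1.6%), namely Blnk and Vpreb3. GAGGAAGT, an Ets site of the PU.1 kind, was in 2 (6.25%, against 2.44%), TATAAA in 4 (12.5%, against 12.4%) and GGGCGG, a GC box, in 12 (37.5%, against 32.7%). All motifs were searched on both strands, and in Spib and Sdc1 a GGGCGG match overlapped a CCCNNGGG match. A match is a run of letters and not a measured binding site.

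Of the early genes, Rag1 was called higher in elderly mice. It encodes the part of the recombinase that cuts DNA at the immunoglobulin genes, lies on chromosome 2 (101478439 to 101489658, minus strand, NCBIM37), and 98.8% of its longest transcript could be counted. Its libraries had 315 and 235 reads in mature and 745 and 685 in elderly mice, or 23.6 ± 4.92 CPM and 56.1 ± 15.4 CPM (SD, n = 2). Both elderly libraries lay far above both mature ones. The log2 fold change was 1.24 with a standard error of 0.26 (edgeR's quasi-likelihood test, adjusted p = 0.0232), a 2.37-fold difference. The call was lost by the exact test at a set dispersion of 0.2 (adjusted p = 0.705). It was also lost without mature replicate 2, elderly replicate 1 or elderly replicate 2. Without either elderly library most calls over all genes were lost too. The log2 fold change of Rag1 over all alternatives stayed between 0.92 and 1.5. B230118H07Rik, whose exons share some bases with Rag1 and Rag2, had 27 and 44 reads in mature and 18 and 44 in elderly libraries, a log2 fold change of -0.42 (adjusted p = 0.855).

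Rag2, the partner of Rag1 in the recombinase, had few reads, all on 1566 countable bases outside its coding sequence. It had 3 and 5 reads in mature and 12 and 4 in elderly libraries, and these values overlapped, with a log2 fold change of 0.91 ± 1.13 (standard error, as for all log2 fold changes below; adjusted p = 0.864). Per kb of countable sequence Rag1 stood at 3.09 to 10.3 CPM and Rag2 at 0.165 to 0.688 CPM over the 4 libraries, but with 45.7% of Rag2 countable, none of it coding, this does not show a difference in level between the partners.

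The surrogate light chain, which pairs with a new heavy chain in the pre-B cell, is encoded by Vpreb1 and Igll1, and Vpreb3 encodes a related chain of the same cells. Vpreb1 had 12 and 2 reads in mature and 9 and 14 in elderly libraries. Reads cannot be assigned with certainty between Vpreb1 and its near-identical copy Vpreb2. Igll1 had 12 and 16 against 6 and 18 reads, all on a retained-intron transcript. In both genes the ages overlapped (adjusted p = 0.921 and 0.91). Vpreb3 had 3 and 5 against 10 and 8 reads, and here the elderly libraries lay higher without passing the test (log2 fold change 1.02 ± 1.04, adjusted p = 0.811). Dntt, the polymerase that adds bases at the joints, had 1 read in mature 1 and 0 elsewhere on its 60 countable bases and was not tested.

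None of the receptor and factor genes was called, and all 7 tested had a log2 fold change above 0. For Spib this sign was fixed, since it had reads in elderly libraries only and passed the filter through them. Cd79a, the CD79 chain that could be counted over its whole length, had 119 and 109 reads in mature and 223 and 209 in elderly libraries, or 9.79 ± 0.633 CPM and 16.9 ± 4.42 CPM (SD, n = 2). The 2 mature libraries lay close together and the elderly ones above them (log2 fold change 0.78 ± 0.30, adjusted p = 0.275). Its partner Cd79b had 0 reads in every library on 236 countable bases.

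Blk, a Src-family kinase of the B-cell receptor, had 49 and 16 reads in mature and 174 and 64 in elderly libraries. Elderly 1 alone stood far above the rest, and elderly 2 was just above mature 1 when scaled (4.223 against 4.218 CPM). Its log2 fold change was 1.81 ± 0.60 (adjusted p = 0.18), and without elderly replicate 1 it was 0.57. Blk was called without mature replicate 1 (adjusted p = 1.4e-05) and without a filter on low counts (7.24e-04). Blnk, the adaptor that links the receptor kinases to phospholipase C, had 18 and 16 against 29 and 16 reads, all on a retained-intron transcript (log2 fold change 0.30, adjusted p = 0.932). Btk, the kinase missing in X-linked agammaglobulinemia, had 0 and 3 against 8 and 13 reads, a ratio of pooled counts of 6.2 with an exact 95% interval of 1.85 to 32.5 that covers counting error only (adjusted p = 0.531). Of its reads 29.2% lay on a protein-coding transcript, with 0 and 2 in mature and 3 and 2 in elderly libraries. On protein-coding transcripts only, the log2 fold change of Btk was 1.06, against 2.53 in the reported fit.

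Pou2af1, the B-cell coactivator of the Oct factors, had the most reads of its stage, with 259 and 113 reads in mature and 436 and 344 in elderly libraries. Scaled to CPM these were 22.3 and 9.69 against 39.2 and 22.7, so that elderly 2 and mature 1 were nearly level (log2 fold change 0.95 ± 0.37, adjusted p = 0.305). Pou2af1 was called without mature replicate 1 (adjusted p = 8.9e-04) and without a filter on low counts (0.0297). Pax5, which holds cells to the B lineage, had 3 and 7 against 23 and 11 reads, the elderly libraries being higher (log2 fold change 1.66 ± 0.87, adjusted p = 0.533), with 15.9% of its reads on protein-coding transcripts. Spib, an Ets factor of B cells, had 0 and 0 against 1 and 4 reads on 54 countable bases (adjusted p = 0.648).

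**Figure D4:**
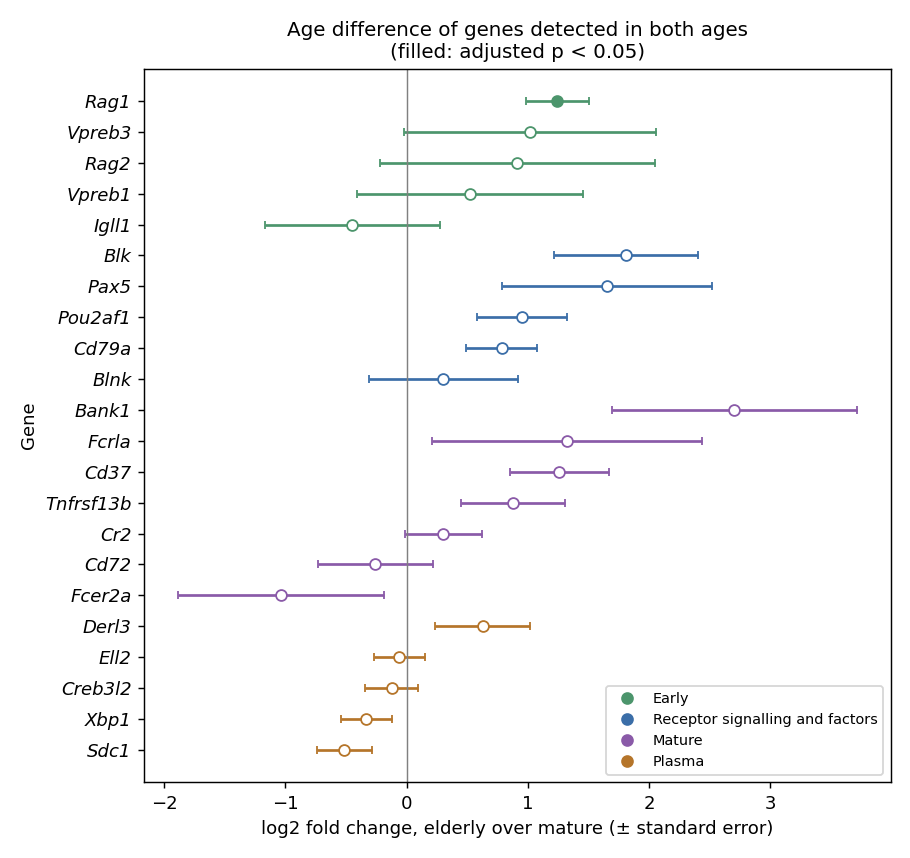
Points are log2 fold changes (elderly over mature) with standard errors from edgeR's quasi-likelihood fit for the genes with more than 3 reads in at least 1 library of each age, ordered within each stage, and a filled point marks an adjusted p under 0.05. Rag1 at 1.24 is the only filled point; Prdm1, which had no read in mature mice, has no fitted value here.

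The mature stage had 9 genes tested and none called. Ms4a1, which encodes CD20, had 0 reads in both mature libraries and 9 and 11 in the elderly ones on 467 countable bases. Against a floor of 3 reads per mature library this was at least 2.98-fold higher in elderly mice (adjusted p = 0.161), and the exact test at a set dispersion called it (adjusted p = 0.0405). Bank1, a scaffold of receptor signalling, had 6 and 0 against 25 and 19 reads (log2 fold change 2.70 ± 1.01, adjusted p = 0.268, and 0.00404 without mature replicate 1). Faim3, the receptor for the Fc part of IgM, had 0 and 1 against 4 and 15 reads, a pooled ratio of 16.8 (exact 95% interval 2.67 to 699, adjusted p = 0.381). Both Ms4a1 and Faim3 passed the filter only through the elderly libraries, so the filter set their direction.

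Cd37, a tetraspanin of B cells, had 38 and 29 reads in mature and 98 and 77 in elderly libraries. The ages were apart (log2 fold change 1.26 ± 0.41, adjusted p = 0.171), but 0.413% of these reads lay on protein-coding transcripts. Tnfrsf13b, which encodes the BAFF and APRIL receptor TACI, had 65 and 29 against 102 and 87 reads (log2 fold change 0.88 ± 0.43, adjusted p = 0.492). In CPM mature 1 (5.6) came close to elderly 2 (5.74).

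Other genes of the resting mature B cell did not have both elderly libraries above both mature ones. Cr2, the complement receptor CD21, could be counted on 5298 of the 6207 bases of its longest transcript and on part of a shorter one, and had 88 and 129 reads in mature and 109 and 199 in elderly libraries, and the ages overlapped (log2 fold change 0.30 ± 0.32, adjusted p = 0.821). Fcer2a, the low-affinity IgE receptor CD23, had 16 and 8 against 6 and 7 reads, with both elderly libraries lower (log2 fold change -1.03 ± 0.85, adjusted p = 0.724). Cd72, an inhibitory coreceptor, had 52 and 29 against 41 and 33 reads (-0.26 ± 0.47, adjusted p = 0.922), and Fcrla, an intracellular Fc receptor-like protein, had 6 and 2 against 17 and 4 (1.32 ± 1.11, adjusted p = 0.736). The ages overlapped in both. Cd22, an inhibitory receptor, and Tnfrsf13c, the BAFF receptor, had 0 reads in every library on their few countable bases.

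Of the plasma-stage genes, Prdm1 was called higher in elderly mice. It encodes Blimp-1, the repressor that ends the B-cell program, and lies on chromosome 10 (44156983 to 44248307, minus strand, NCBIM37). It had 0 reads in both mature libraries and 45 and 51 in the elderly ones, or 3.7 ± 0.479 CPM (SD, n = 2) in elderly mice. Against a floor of 3 reads per mature library this was at least 14.4-fold higher (edgeR's quasi-likelihood test, adjusted p = 0.0019). The reads fell on 1467 countable bases, 27.8% of the longest transcript and mostly untranslated. The call was kept without either mature library and lost without either elderly one, where most calls over all genes were lost too.

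None of the other plasma-stage genes was called. Tnfrsf17, the receptor BCMA of long-lived plasma cells, could be counted over its whole length and had 0 and 2 reads in mature and 2 and 0 in elderly libraries, so it was at or under the floor in all 4. Irf4, a factor of plasma cell differentiation, had 0 reads on 3 countable bases. Sdc1, which encodes the plasma cell surface proteoglycan CD138 and is also expressed by epithelial and stromal cells, had 890 and 734 reads in mature and 470 and 841 in elderly libraries. In CPM both elderly libraries lay below both mature ones, at 42.2 and 55.5 against 76.6 and 62.9 (log2 fold change -0.51 ± 0.23, adjusted p = 0.4).

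Xbp1, a driver of the secretory program in plasma cells and other secretory cells, had 677 and 597 reads in mature and 502 and 636 in elderly libraries, or 54.7 ± 5 CPM and 43.5 ± 2.22 CPM (SD, n = 2). Scaled by depth, both elderly libraries were lower without passing the test (log2 fold change -0.33 ± 0.21, adjusted p = 0.648), and 17.6% of its reads were on protein-coding transcripts. Creb3l2, a membrane-bound factor of secretory cells, and Ell2, an elongation factor used for secreted immunoglobulin, had the most reads of all 33 genes. Creb3l2 had 4748 and 6438 against 4278 and 7551 reads (log2 fold change -0.12 ± 0.22) and Ell2 had 1303 and 1794 against 1423 and 1929 (-0.06 ± 0.21), and the ages overlapped in both. Derl3, a part of the machinery that clears misfolded proteins, had 34 and 65 against 82 and 88 reads (log2 fold change 0.63 ± 0.40, adjusted p = 0.645).

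Levels could be compared between genes per kb of countable sequence for those counted over at least 80% of their longest transcript. Creb3l2 stood at 56.2 to 80.8 CPM per kb over the 4 libraries and Ell2 at 30.8 to 42.2. Pou2af1 (3.78 to 15.3), Cd79a (6.42 to 13.8) and Rag1 (3.09 to 10.3) followed, and their ranges overlapped each other. Derl3 (2.19 to 5.51), Blk (0.554 to 6.32) and Cr2 (1.18 to 2.04) lay lower, with ranges that overlap those of their neighbours in this order. Tnfrsf17 (0 to 0.22) was lowest. Blnk, whose countable bases lie on a retained-intron transcript, has no place in this order (0.27 to 0.668). The split at 80% was chosen after the values were seen. Among these genes, Blnk included (10), 1 was called higher and 5 were apart with elderly above mature, with a median log2 fold change of 0.47. Among the 18 tested genes with fewer countable bases 1 was called higher and 10 were apart in this direction, with a median of 1.14. Spib, Ms4a1, Prdm1 and Faim3, which passed the filter only through the elderly libraries, are all among these 18. Prdm1 is the gene called there. These values therefore do not show a difference between the groups of genes. Of all genes tested, 2.28% were called higher and 22.9% were apart in this direction.

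The levels were also set against the summed CPM of the 8 leukocyte markers of the same library, a scale chosen after the data were seen and made up mostly of Cd53 and Rac2, which myeloid and lymphoid cells share. On it Rag1 came to 20.5% and 29.4% of the leukocyte sum in mature and 21.9% and 16.5% in elderly libraries, so the ages overlapped. Cd79a came to 7.76% and 13.7% against 6.56% and 5.05%, and Pou2af1 to 16.9% and 14.2% against 12.8% and 8.31%, with both elderly libraries lower. Prdm1 came to 0% in both mature libraries and 1.32% and 1.23% in the elderly ones. Of the 28 genes tested, 4 lay higher in both elderly libraries on this scale (Spib, Ms4a1, Bank1 and Prdm1), 12 lay lower in both and 12 overlapped. Spib, Ms4a1 and Prdm1 had no read in mature libraries, so no such scale could place them lower. The leukocyte sum was itself higher in elderly libraries (305 and 273 against 132 and 68.4 CPM), so a gene of unchanged CPM falls on this scale. The share over all genes was not computed, and these counts are not read as a result about the stages.

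**Figure D5:**
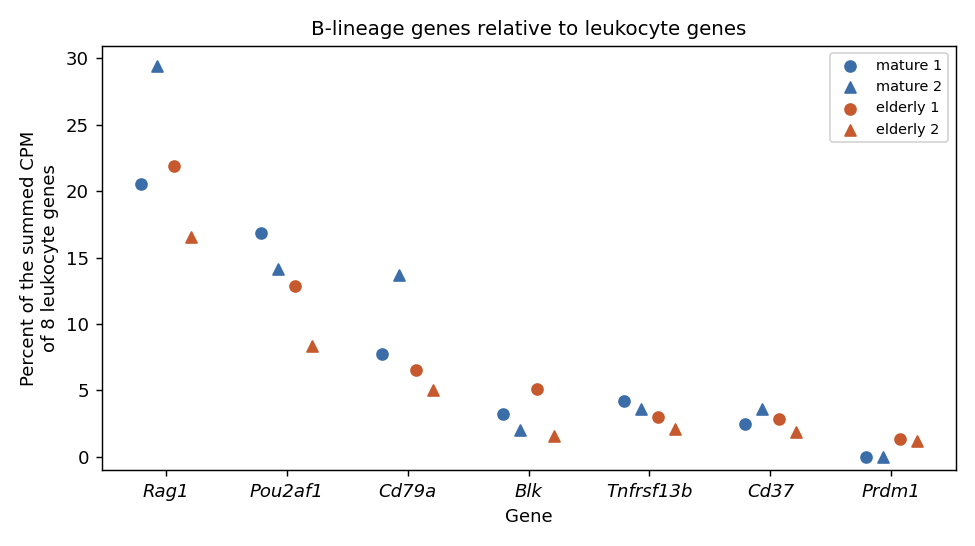
Points give the CPM of each gene as a percent of the summed CPM of 8 leukocyte markers in the same library, for 7 genes with colours and shapes for age and replicate. Rag1, Blk and Cd37 overlapped between the ages, and Pou2af1, Cd79a and Tnfrsf13b lay lower in both elderly libraries. Prdm1, at 0 in mature mice, lay higher in both, which no such scale could change.

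Of 74 further B-lineage genes listed by stage, 70 were tested, 9 were called higher in elderly mice and 0 lower, against 2.28% and 0.45% of all genes tested. By stage these were 2 of 16 early genes, 3 of 18 receptor and factor genes, 2 of 17 mature genes and 2 of 19 plasma genes. At an unadjusted p under 0.05 there were 26 of 70 by the same test, against 11.2% of all genes tested. The number called moved when a library was left out, which leaves 1 library in that age, and so did the number over all genes. Several of the genes called are also used by other blood cells.

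Among those with the smallest p were Fam46c, Cd38, Plcg2 and Cd24a. Plcg2, the phospholipase downstream of Blnk and Btk, had 393 and 302 reads in mature and 879 and 1018 in elderly libraries (log2 fold change 1.29 ± 0.23, adjusted p = 0.00907). Cd38, a surface enzyme of B cells and other leukocytes, had 37 and 35 against 137 and 163 reads (1.89 ± 0.33, adjusted p = 0.00845). Fam46c, a poly(A) polymerase of plasma cells that erythroid cells also express, had a log2 fold change of 1.44 (adjusted p = 0.00698), and Cd24a, a marker of early B cells, erythroid cells and granulocytes, one of 1.79 (adjusted p = 0.00988). In these 4 genes both elderly libraries lay above both mature ones.

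The interleukin 7 receptor chain Il7r, which early B cells need, had 89 and 63 reads in mature and 228 and 134 in elderly libraries, apart but not called (1.16 ± 0.39, adjusted p = 0.201). Mzb1, a chaperone of IgM assembly, had 53 and 28 against 123 and 85 (1.25 ± 0.43, adjusted p = 0.219). Ebf1, a B-lineage factor that marrow stroma also expresses, had 8460 and 7546 against 4629 and 8197 reads, with both elderly libraries lower in CPM (log2 fold change -0.52 ± 0.21, adjusted p = 0.31). Vpreb2, a near-identical copy of Vpreb1 whose reads cannot be assigned with certainty, had 2 and 0 against 2 and 13. The J chain gene Igj, which joins the units of IgM and IgA, had 53 and 28 against 595 and 914 reads (log2 fold change 4.03 ± 0.32, adjusted p = 5.58e-05).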

How the data were processed

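RNA-seq libraries of bone marrow cells from mature and elderly mice were grouped by the titles of the sample labels, 2 per age. The authors pooled RNA from 3 or 4 mice per group, selected poly(A) RNA (except in some samples named by abbreviations that the labels here do not carry), removed adapters with CutAdapt, mapped reads to mm9 (HISAT2) and ran featureCounts. What was deposited is whole-number counts per Ensembl transcript, without normalization or filter. No unused column of per-sample values was present (0).

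Transcripts were matched to GENCODE M1 on NCBIM37, and all but 388 of 95883 were found, those 388 holding 0.0785 to 0.0888% of the counts. All 25621 transcripts without a base of their own had 0 counts. Counts were summed per gene, and 21340 genes with a summed count over 2 were normalized by TMM and compared between ages with edgeR 4.0.16 (R 4.3.3), using the 2-sided quasi-likelihood test without covariates and Benjamini-Hochberg adjustment over all genes tested. The biological coefficient of variation was 0.262. The study itself used edgeR's exact test at a set dispersion of 0.2, which was run as an alternative, as were DESeq2 1.42.0, other filters, other scalings, the replicate number as a block, and each library left out. The fit was tested on simulated data.

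The libraries held 10472117 to 15650518 counts. Libraries of an age differed by more than sampling noise (chi-square per degree of freedom 16.2 in mature and 34.6 in elderly). The members, the stage lists, the marker lists and the alternatives were chosen with earlier results of these data known. Reads per library are given for every gene called and for the genes that define a stage. Of the further B-lineage genes, Il7r, Ebf1, Vpreb2 and Mzb1 are named, plus the 5 called with the smallest p in each direction. Some genes that meet these rules were left out of the text. Syk and Mzb1 were matched as Sykb and 2010001M09Rik. Intervals of pooled ratios are exact and cover counting error only.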

Additional observations from a re-analysis of the deposited data

How the results depend on the processing

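Of the members, 2 were called higher in the reported fit, 4 without a filter, 6 with the replicate number as a block and 1 when a log2 fold change over 2 was also asked. Over all genes, those called higher went from 487 to 892 without a filter, 970 with the block and 200 with the exact test. The number over all genes with the fold threshold was not computed. Early genes called (1) became 0 with the exact test or the fold threshold. Receptor and factor genes called (0) became 2 without a filter and 2 with the block, mature genes called (0) became 1 with the exact test and 2 with the block. Further B-lineage genes called higher (9) became 2 with the exact test, 17 without a filter, 18 with the block and 3 with the fold threshold, and those called lower (0) became 1 without a filter and 1 on transcripts as deposited. With edgeR's filterByExpr the median log2 fold changes of the early, receptor and mature stages fell to 0.49, 0.84 and 0.84.

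Leaving out 1 library at a time gave 0 to 5 members called higher, 0 to 1 early, 0 to 2 receptor, 0 to 1 mature and 0 to 1 plasma genes, and 0 to 17 and 0 to 1 further genes called higher and lower. Over all genes, 36 were called higher and 4 lower without elderly replicate 1, and 0 and 0 without elderly replicate 2, where fewer samples remain and the lone library is assumed to vary like the others. Without mature replicate 1 the members called were 5, among them Blk (adjusted p = 1.4e-05), Pou2af1 (8.9e-04) and Bank1 (0.00404). Stage medians ranged from 0.59 to 1.36 (early), 0.57 to 1.76 (receptor), 0.49 to 1.61 (mature) and -0.27 to 0.11 (plasma).

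The log2 fold change turned its sign in Cd72 on transcripts as deposited (0.016) and in Tnfrsf17 with DESeq2 (0.018), and with a library left out in Vpreb1 (-0.29 to 2.28), Rag2 (-0.38 to 1.62), Blnk (-0.48 to 0.83), Cd72 (-0.69 to 0.22), Fcrla (-0.39 to 2.28), Tnfrsf17 (-0.999 to 0.98), Creb3l2 (-0.32 to 0.069) and Ell2 (-0.27 to 0.14); none of these passed the test. DESeq2, the robust fit, scaling without TMM factors or without immunoglobulin, hemoglobin and histone genes, and protein-coding genes only left Rag1 and Prdm1 called. Same-numbered libraries share only a number: their deviations from the age means correlated at 0.0433 over 14880 genes. With the block Blk (adjusted p = 1.42e-04), Pou2af1 (0.00326), Cd37 (0.0368) and Bank1 (0.0455) were also called. The cause of these shifts was not tested. Precision is limited by 2 libraries per age and, for 18 members, by countable bases under 50% of the longest transcript.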
